A study of Mus musculus with 4 samples.

Results

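The genes described here are 10 heat shock and chaperone genes in mouse thymocytes: *Hspa1a*, *Hspa1b*, *Hspa8*, *Hsph1*, *Dnajb1*, *Dnaja1*, *Hsp90aa1*, *Hsp90ab1*, *Hspd1* and *Hspe1*. They were chosen by gene symbol, as inducible and constitutive chaperones of the cytosol and mitochondria, and make up 10 of the 24421 genes listed. RNA-seq was carried out on CD69+CD4+CD8+ cells (CD69+DP), the double positive thymocytes that have received a T-cell receptor signal, sorted by flow cytometry. The control group was Foxa1fl/flFoxa2fl/fl CD4Cre- (n = 2) and the Foxa1/2cKO group was Foxa1fl/flFoxa2fl/fl CD4Cre+ (n = 2), so both groups carried the same floxed alleles of the transcription factor genes *Foxa1* and *Foxa2*. All mice were 6 weeks old and on a C57BL/6 background, and the controls were littermates. Cre was driven by the *Cd4* promoter, which is active in T cells from the DP stage, so deletion begins at the stage that was sorted. By the study's methods, no mouse was shared between samples, and a sort took 2 mice per genotype. The comparison asks how the loss of both factors in T cells changed RNA levels at positive selection.

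Chaperones bind unfolded or partly folded proteins and keep them from aggregating. Hsp70 proteins (*Hspa* genes) hold a client through cycles of ATP hydrolysis, which J-domain proteins (*Dnaj* genes) stimulate and exchange factors such as *Hsph1* reset, and clients such as kinases and steroid receptors pass on to Hsp90. Hsp60 (*Hspd1*) and its lid Hsp10 (*Hspe1*) fold proteins inside mitochondria. The transcription factor HSF1 raises many of these genes after heat or other protein stress by binding heat shock elements, inverted repeats of the unit GAA, while *Hspa8* and *Hsp90ab1* are known for high levels in unstressed cells. In freshly prepared tissue, the inducible Hsp70 genes are also widely used as a sign of stress during cell preparation.

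The promoter letters of the genes are shown first, with exact matches to the pattern of heat shock elements near their start. Windows from 250 bases before to 50 bases after the start of a transcript were taken from RefSeq for 7 of the 10 genes (GRCm38.p6, the assembly of mm10). No window was used for *Hspa8*, *Hsp90aa1* and *Hsp90ab1*. A 3-unit element (GAANNTTCNNGAA or TTCNNGAANNTTC, where N is any base, both strands searched) was held by 0.603% of all 32851 windows and by 4 of the 12 windows of the 7 genes, which belong to *Hsph1*, *Hspd1* (1 of its 2 windows) and *Hspe1*. A 2-unit element (GAANNTTC or TTCNNGAA, which every 3-unit match also holds) was held by 15.1% of all windows and by 7 of the 12, with at least 1 window for each of the 7 genes but *Dnajb1*. The stretches of 30 bases around the matches before the start are written 5′ to 3′ on the strand of the gene, with the matched letters in capitals:
Hspa1a, chr17:34972242-34972271, minus strand: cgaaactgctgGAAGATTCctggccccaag
Hspa1b, chr17:34959324-34959353, minus strand: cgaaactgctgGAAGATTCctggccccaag
Hsph1, chr5:149636351-149636380, minus strand: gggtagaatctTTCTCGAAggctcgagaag
Dnaja1, chr4:40722333-40722362, plus strand: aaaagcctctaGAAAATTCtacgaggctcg
Hspd1, chr1:55088053-55088082, minus strand: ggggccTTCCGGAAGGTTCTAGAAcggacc
Hspe1, chr1:55088053-55088082, plus strand: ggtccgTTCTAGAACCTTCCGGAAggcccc
The *Hspa1a* and *Hspa1b* windows differed at 4 of 300 bases, and in both the match began 104 bases before the start. *Hspd1* and *Hspe1* lie head to head, and the capitals of both lines are the same bases of chromosome 1 read on either strand. The match began 89 bases before the start of *Hspe1* and 144 bases before 1 of the 2 starts of *Hspd1*. It lay past the other start of *Hspd1*, whose window held no match. The matched windows of *Hspd1* and *Hspe1* shared 285 bases, and those of *Hsph1* overlapped too, so the windows with a 3-unit match are not separate sites. The 3-unit match of *Hsph1*, TTCTGGAAAGTTC, lay 36 or 15 bases past the start, and a 2-unit match 33 or 54 bases before it, counted from either of its 2 starts. A match of letters is a description, and binding of HSF1 was not measured. Only exact units were searched, so a gene without a match, or without a window, may still have a heat shock element.

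Values are FPKM, read fragments scaled to the length of the transcript and to a total for each sample, so levels can be compared between genes as well as samples. Sequencing gave 10374454 to 14450032 reads on listed genes per sample, as recovered from the steps between FPKM values. *Foxa1* and *Foxa2* were both listed at 0 in all 4 samples, so neither gene checks the genotype labels. All 9 markers of T lineage and DP cells were present, including *Cd4*, *Cd8a*, *Cd8b1* and *Cd69*. Foxa1/2cKO 2 stood apart from the other samples: it lay at 28.5 on the first principal component, which held 65.2% of the variance, against -11.0 to -7.42 for the others. The summed FPKM of the T lineage and DP markers was 4303 in Foxa1/2cKO 2 and 3319.5 to 3367 in the other samples. Across the 10776 genes tested, the log2 difference between the samples of a group had an SD of 0.405 in Foxa1/2cKO and 0.198 in controls. Fold changes of the genes tested, and medians of lists, are therefore given with and without each Foxa1/2cKO sample. B cell markers summed to 73.1 and 48.7 in controls and 99.4 and 52.2 in Foxa1/2cKO, and myeloid markers to 20.8 and 12.6 in controls and 21.0 and 10.6 in Foxa1/2cKO. Erythroid markers summed to at most 2.67, with *Hbb-bt* and *Hba-a1* listed at 0. Thymic epithelial markers summed to 3.26 and 3.18 in controls and 4.18 and 3.69 in Foxa1/2cKO, without overlap between groups. Nearly all of this sum was *Epcam*, at 2.76 and 2.89 in controls and 3.86 and 3.37 in Foxa1/2cKO, while *Krt8* went the other way, at 0.296 and 0.245 in controls and 0.205 and 0.0999 in Foxa1/2cKO. The part of these cells in the results below was not tested.

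The 10 genes spanned more than 3 orders of magnitude in level, from *Hsp90ab1* down to *Hspa1a*. By the mean FPKM over the 4 samples the order was *Hsp90ab1* (604), *Hspa8* (315), *Hsp90aa1* (83.9), *Hspd1* (58.9), *Hspe1* (52.3), *Dnajb1* (41.8), *Dnaja1* (24.0), *Hsph1* (21.7), *Hspa1b* (0.541) and *Hspa1a* (0.179). The sample ranges of *Hsp90ab1*, *Hspa8* and *Hsp90aa1* did not overlap. The ranges overlapped for *Hspd1* with *Hspe1*, *Hspe1* with *Dnajb1*, and *Dnaja1* with *Hsph1*, neighbours whose order also differed from sample to sample. They overlapped too for *Hsp90aa1* with *Hspd1* and for *Hspa1b* with *Hspa1a*, but there the order was the same within each of the 4 samples. The mean of *Hsp90ab1* was above that of 99.7% of the 16069 genes with a value above 0, and that of *Hspa8* above 99.2%. *Hspa1b* stood above only 29.3% and *Hspa1a* above 21.6% of those genes. Summed FPKM of the 10 genes was 1315 and 1264 in controls and 1191 and 1041 in Foxa1/2cKO, or 0.355% and 0.339% against 0.325% and 0.272% of all FPKM. Both Foxa1/2cKO samples were below both controls in this sum, with Foxa1/2cKO 2 the lowest, and *Hsp90ab1* with *Hspa8* made up 75.4% to 77.5% of it in every sample.

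**Figure D1:**
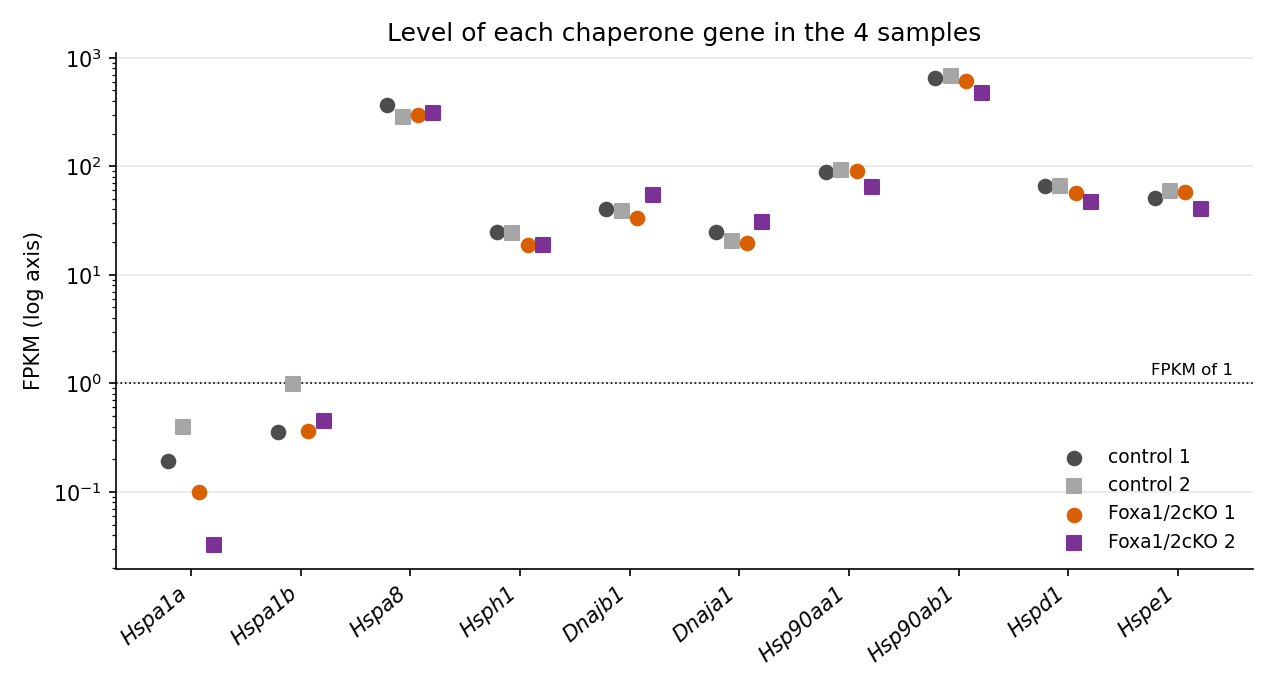
FPKM of the 10 chaperone genes (log axis), with 1 point per sample for control 1 and 2 and Foxa1/2cKO 1 and 2, and a dotted line at an FPKM of 1. *Hsp90ab1* and *Hspa8* lie at 287 or above in every sample, and *Hspa1a* and *Hspa1b* below 1.

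No chaperone gene passed the test for a difference between genotypes. Of the 8 genes that passed the filter on low values (2 or more samples at an FPKM of 1 or higher), 6 had a lower and 2 a higher mean in Foxa1/2cKO, where 48.7% of all genes tested were lower. In limma's test on log2(FPKM + 1), none of the 8 had a Benjamini-Hochberg adjusted p under 0.05, where 0.00928% of all genes tested did, and limma-voom on the recovered reads also gave 0. At an unadjusted p under 0.05 there were 2 of the 8, *Hsph1* and *Hspd1*, both lower in Foxa1/2cKO, where the share over all genes was 4.55% in either direction, 2.15% lower and 2.39% higher. In 3 of the 8, *Hsph1*, *Hsp90ab1* and *Hspd1*, both Foxa1/2cKO samples lay below both controls, and in 0 above, where 17.8% of all genes tested lay below, 18.9% above and 36.7% either way. The median log2 fold change of the 8 genes was -0.21, with a range from -0.36 to 0.12, against 0.01 over all genes tested. It was -0.15 without Foxa1/2cKO 2 and -0.40 without Foxa1/2cKO 1. With 2 samples in each group, the smallest two-sided p of an exact permutation test is 0.333. In these bulk samples, fewer cells of a type and less RNA per cell cannot be told apart.

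Among the Hsp70 genes, the inducible pair was at a low level, with *Hspa1a* close to the limit of the depth. The constitutive *Hspa8* differed more between the controls than between genotypes. *Hspa1a* (chr17:34969190-34972156, minus strand) encodes the classic heat-inducible Hsp70. It had an FPKM of 0.191 and 0.395 in controls and 0.0993 and 0.0322 in Foxa1/2cKO, which stood for 8, 15, 3 and 1 reads. Both Foxa1/2cKO samples were below both controls. Relative to the totals by which FPKM had been divided, the Foxa1/2cKO samples had 0.227 times the *Hspa1a* reads of controls. The exact 95% interval, from 0.0570 to 0.664, covers counting error only. The gene was below the filter, and with no filter its adjusted p in limma was 0.882. On log2(FPKM + 1) its difference was -0.27 ± 0.10 (SE). This understates the change in FPKM, a ratio of means of 0.224, because the added 1 exceeds every FPKM of the gene. *Hspa1b* (chr17:34956436-34959238, minus strand), its near copy, had an FPKM of 0.357 and 0.996 in controls and 0.363 and 0.449 in Foxa1/2cKO, from 15, 38, 11 and 14 reads. Control 2 was high and the other 3 samples were alike, so the groups overlapped. The ratio of *Hspa1b* reads was 0.615, with an interval from 0.366 to 1.01. A level of 3 reads corresponded to an FPKM of 0.0716 to 0.0993 for *Hspa1a*, so the Foxa1/2cKO samples were at or below it.

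Reads of these neighbours on chromosome 17 are hard to assign. Of the stretches of 50 bases of the *Hspa1a* transcript, 66.3% also occur in another annotated transcript, with 58.8% in *Hspa1b*, and *Gm20481* overlaps the gene on the opposite strand over 2225 bases. For *Hspa1b* the share was 62.3%. How reads that match more than 1 place were treated was not stated, so the level of each gene alone is uncertain, and in the union mode of HTSeq reads over overlapping genes are counted for neither unless the strand tells them apart. Their summed FPKM was 0.548 and 1.39 in controls and 0.462 and 0.481 in Foxa1/2cKO. The high value belonged to control 2, and the other samples were close together.

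*Hspa8* (chr9:40800984-40810087, plus strand) encodes Hsc70, the Hsp70 of unstressed cells. Its FPKM was 368 and 287 in controls and 298 and 308 in Foxa1/2cKO. Control 1 was the highest and control 2 the lowest of the samples, with both Foxa1/2cKO samples between them. Its log2 fold change was -0.10 ± 0.14 (SE), with an adjusted p of 0.897 in limma, -0.13 without Foxa1/2cKO 2 and -0.08 without Foxa1/2cKO 1, but 0.07 without control 1. The controls differed by 0.35 on the log2 scale, more than 95.3% of all genes tested, where counting error alone gives an SE of 0.0208. Much of its sequence is shared too: 74.8% of its 50-base stretches occur in another annotated transcript, 73.2% in pseudogenes. How this bears on its level depends on the treatment of such reads, which was not stated. The small nucleolar RNA genes *Snord14c*, *Snord14d* and *Snord14e* lie within it.

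*Hsph1* (chr5:149614287-149636376, minus strand) encodes Hsp110, a nucleotide exchange factor of Hsp70. It had an FPKM of 24.6 and 24.4 in controls and 19.0 and 18.8 in Foxa1/2cKO, from 1280, 1151, 712 and 726 reads. The samples of each group were nearly the same and the groups did not overlap, with a mean of 24.5 ± 0.150 in controls and 18.9 ± 0.103 in Foxa1/2cKO (SD, n = 2). This was a difference of -22.8% in mean FPKM and a log2 fold change of -0.36 ± 0.08 (SE), with an unadjusted p of 0.00876 and an adjusted p of 0.863 in limma. By p it ranked 71 among the 10776 genes tested. The log2 fold change was -0.35 without Foxa1/2cKO 2 and -0.36 without Foxa1/2cKO 1, so *Hsph1* was the gene of the 8 whose value moved least between the Foxa1/2cKO samples. None of its 50-base stretches occurred in another annotated transcript.

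Of the 8 genes tested, the J-domain genes had the widest spread within Foxa1/2cKO on the log2(FPKM + 1) scale, and no difference between genotypes was detectable. *Dnajb1* (chr8:83608193-83612653, plus strand) encodes Hsp40, the main heat-inducible partner of Hsp70. Its FPKM was 40.5 and 39.1 in controls and 33.2 and 54.6 in Foxa1/2cKO. Foxa1/2cKO 1 was the lowest and Foxa1/2cKO 2 the highest of the samples, on either side of the controls. The log2 fold change was 0.09 ± 0.24 (SE), with an adjusted p of 0.945 in limma, and its sign depended on the sample: -0.26 without Foxa1/2cKO 2 and 0.45 without Foxa1/2cKO 1. The Foxa1/2cKO samples differed by 1.65 times, a log2 difference larger than that of 92.3% of all genes tested.

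*Dnaja1* (chr4:40722150-40737149, plus strand) encodes another J-domain partner of Hsp70 in the cytosol. It had an FPKM of 24.9 and 20.4 in controls and 19.8 and 30.7 in Foxa1/2cKO. As with *Dnajb1*, the controls lay between a low Foxa1/2cKO 1 and a high Foxa1/2cKO 2. Its log2 fold change was 0.12 ± 0.23 (SE), with an adjusted p of 0.925 in limma, -0.18 without Foxa1/2cKO 2 and 0.43 without Foxa1/2cKO 1. *Smu1* overlaps the gene on the opposite strand over 608 bases, as do *Gm6297* over 249 bases and, on the same strand, *Mir207* over 79 bases, and 28.8% of its 50-base stretches occur in another annotated transcript. Whether the counting of reads per gene used the strand was not stated.

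Both Hsp90 genes were lowest in Foxa1/2cKO 2. *Hsp90aa1* (chr12:110690605-110702728, minus strand) encodes the stress-inducible cytosolic Hsp90. Its FPKM was 88.0 and 93.2 in controls and 90.4 and 64.1 in Foxa1/2cKO. Foxa1/2cKO 1 lay between the controls and Foxa1/2cKO 2 below them, so the groups overlapped. Its log2 fold change was -0.25 ± 0.18 (SE), with an adjusted p of 0.863 in limma, -0.00 without Foxa1/2cKO 2 and -0.49 without Foxa1/2cKO 1. The difference thus rested on Foxa1/2cKO 2. Pseudogenes held 58.5% of its 50-base stretches.

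*Hsp90ab1* (chr17:45567775-45573271, minus strand), the constitutive Hsp90 and the most abundant of the 10 genes, had an FPKM of 652 and 673 in controls and 615 and 477 in Foxa1/2cKO. Both Foxa1/2cKO samples were below both controls, Foxa1/2cKO 1 by little. The mean was 663 ± 14.7 in controls and 546 ± 97.3 in Foxa1/2cKO (SD, n = 2). The log2 fold change was -0.29 ± 0.15 (SE), with an adjusted p of 0.863 in limma, -0.11 without Foxa1/2cKO 2 and -0.47 without Foxa1/2cKO 1. Only 4.49% of its 50-base stretches occurred in another annotated transcript, against 58.5% for *Hsp90aa1*.

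In the mitochondrial pair, the level of *Hspd1*, but not of *Hspe1*, separated the groups. *Hspd1* (chr1:55077835-55088243, minus strand), which encodes Hsp60, had an FPKM of 66.3 and 65.7 in controls and 57.2 and 46.4 in Foxa1/2cKO. Both Foxa1/2cKO samples were below both controls, and the controls were nearly equal. The mean was 66.0 ± 0.379 in controls and 51.8 ± 7.59 in Foxa1/2cKO (SD, n = 2), a difference of -21.5%. The log2 fold change was -0.35 ± 0.12 (SE), with an unadjusted p of 0.0392 and an adjusted p of 0.863 in limma, and was -0.20 without Foxa1/2cKO 2 and -0.50 without Foxa1/2cKO 1. Pseudogenes held 44.8% of its 50-base stretches, with 42.8% in *Hspd1-ps3*.

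*Hspe1* (chr1:55088132-55091307, plus strand), which encodes Hsp10, had an FPKM of 50.8 and 59.6 in controls and 58.3 and 40.5 in Foxa1/2cKO. Foxa1/2cKO 2 was the lowest sample, and Foxa1/2cKO 1 lay between the controls. Its log2 fold change was -0.18 ± 0.20 (SE), with an adjusted p of 0.876 in limma, 0.08 without Foxa1/2cKO 2 and -0.43 without Foxa1/2cKO 1. The annotated genes overlap by 112 bases on opposite strands, and 44.8% of the *Hspe1* stretches occur in another annotated transcript. A difference between the fold changes of *Hspd1* and *Hspe1* was not tested.

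**Figure D2:**
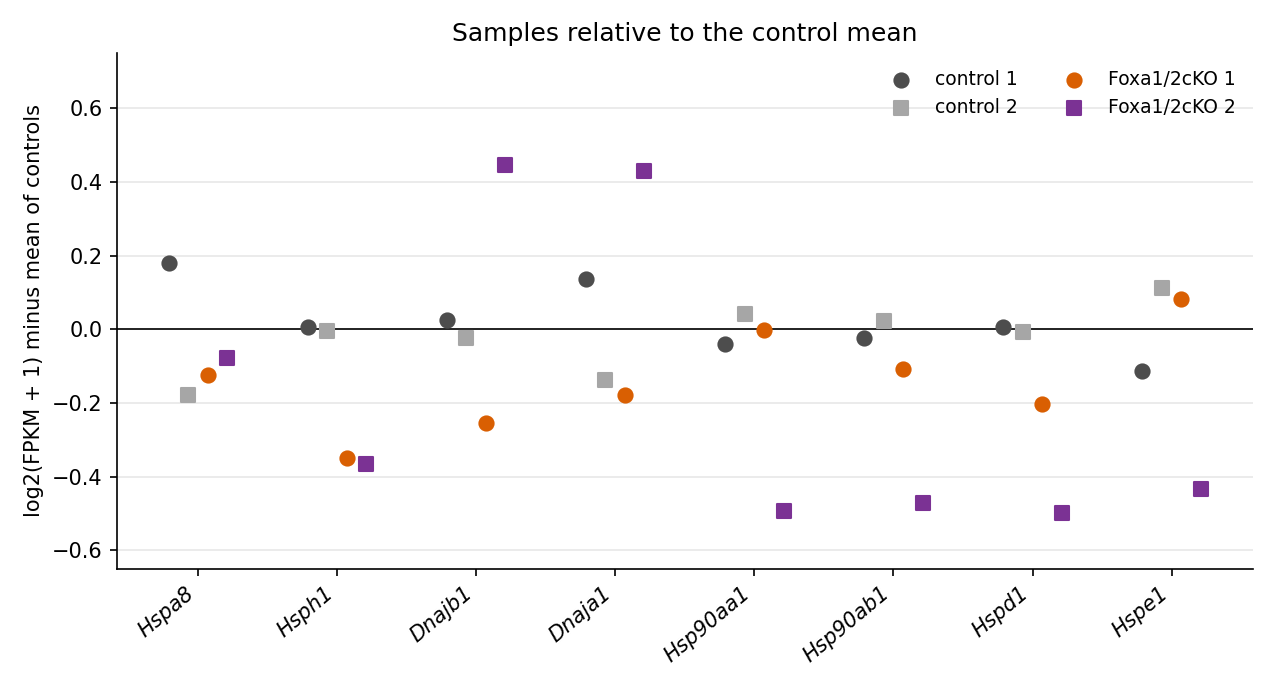
Log2(FPKM + 1) of each sample minus the mean of the 2 controls, for the 8 chaperone genes tested, with 1 point per sample. Foxa1/2cKO 2 is highest for *Dnajb1* and *Dnaja1* and lowest for the Hsp90 genes, *Hspd1*, *Hspe1* and *Hsph1*, and both Foxa1/2cKO samples lie together below the controls for *Hsph1*.

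For most of the 8 genes the Foxa1/2cKO samples differed more than the controls did, but not for *Hsph1* and *Hspa8*. The log2 difference between the Foxa1/2cKO samples was 0.01 for *Hsph1*, as between the controls. It was -0.05 for *Hspa8*, where the controls differed by 0.35. Foxa1/2cKO 2 was the lowest of the 4 samples for 5 genes and the highest for 2, so an extreme for 7 of 8. Over all genes tested it was lowest for 33.3%, highest for 40.5% and at either end for 73.8%, so an extreme place is not particular to these genes. Foxa1/2cKO 2 set against both controls, which leaves out Foxa1/2cKO 1, gave an adjusted p under 0.05 in limma for 7 of the 8 genes, all but *Hspa8*, where 23.7% of all genes tested were called. *Dnajb1* and *Dnaja1* were higher and *Hsph1*, *Hsp90aa1*, *Hsp90ab1*, *Hspd1* and *Hspe1* lower in that setting, where 12.4% of all genes were called higher and 11.3% lower. With Foxa1/2cKO 1 in place of Foxa1/2cKO 2, none of the 8 was called, where 0.176% of all genes were, 0.130% lower and 0.0464% higher. In both settings the lone Foxa1/2cKO sample was assumed to vary as the controls did, so the calls describe 1 sample and not the genotype.

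**Figure D3:**
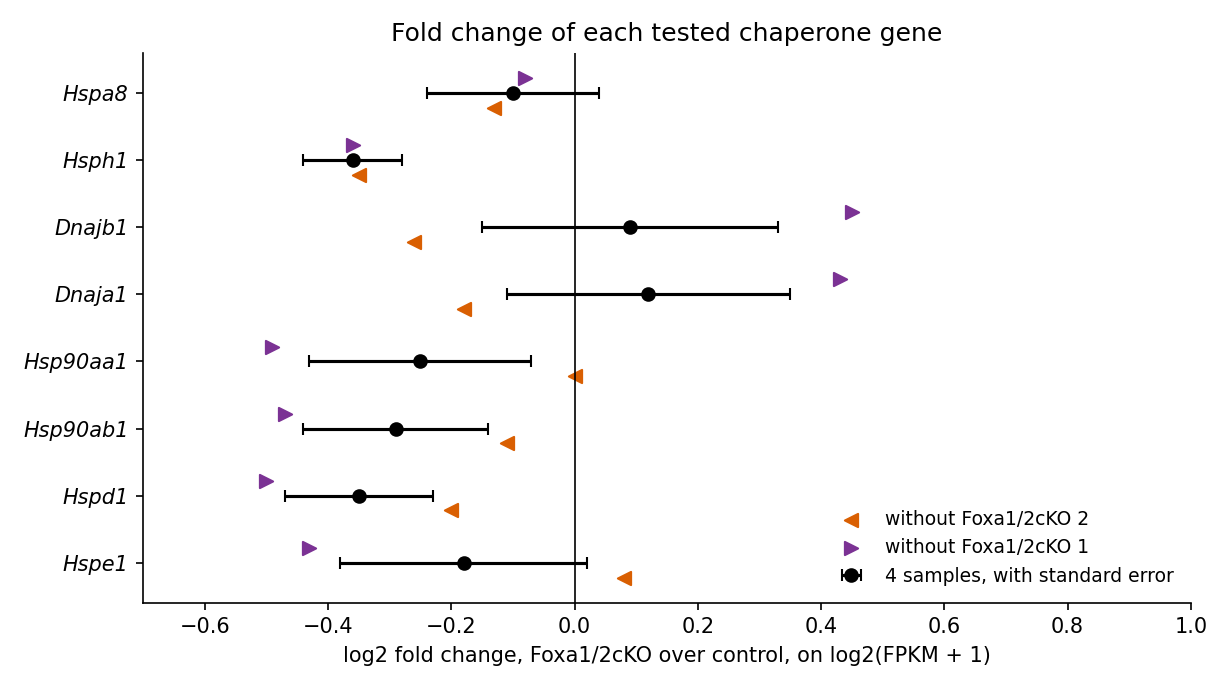
Log2 fold change of Foxa1/2cKO over control on log2(FPKM + 1) for the 8 chaperone genes tested, from all 4 samples (circles, bars of 1 standard error) and without either Foxa1/2cKO sample (triangles). The triangles lie on opposite sides of 0 for *Dnajb1*, *Dnaja1* and *Hspe1*, and almost together for *Hsph1* and *Hspa8*.

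Ratios between partner genes were compared within each sample. The ratio of *Hsp90ab1* to *Hsp90aa1* in FPKM was 7.41 and 7.22 in controls and 6.80 and 7.45 in Foxa1/2cKO, although both genes were low in Foxa1/2cKO 2. *Dnajb1* over *Dnaja1* was 1.62 and 1.92 in controls and 1.68 and 1.78 in Foxa1/2cKO, and *Hspd1* over *Hspe1* was 1.30 and 1.10 in controls and 0.981 and 1.15 in Foxa1/2cKO. The groups overlapped in each of these ratios. The ratio of *Hspa8* to its J-domain partner *Dnajb1* was 9.08 and 7.34 in controls and 8.99 and 5.63 in Foxa1/2cKO, the lowest value belonging to Foxa1/2cKO 2. *Hspa8* over its exchange factor *Hsph1* was 15.0 and 11.8 in controls and 15.7 and 16.3 in Foxa1/2cKO. Here both Foxa1/2cKO samples were above both controls, by less than the controls differed.

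**Figure D4:**
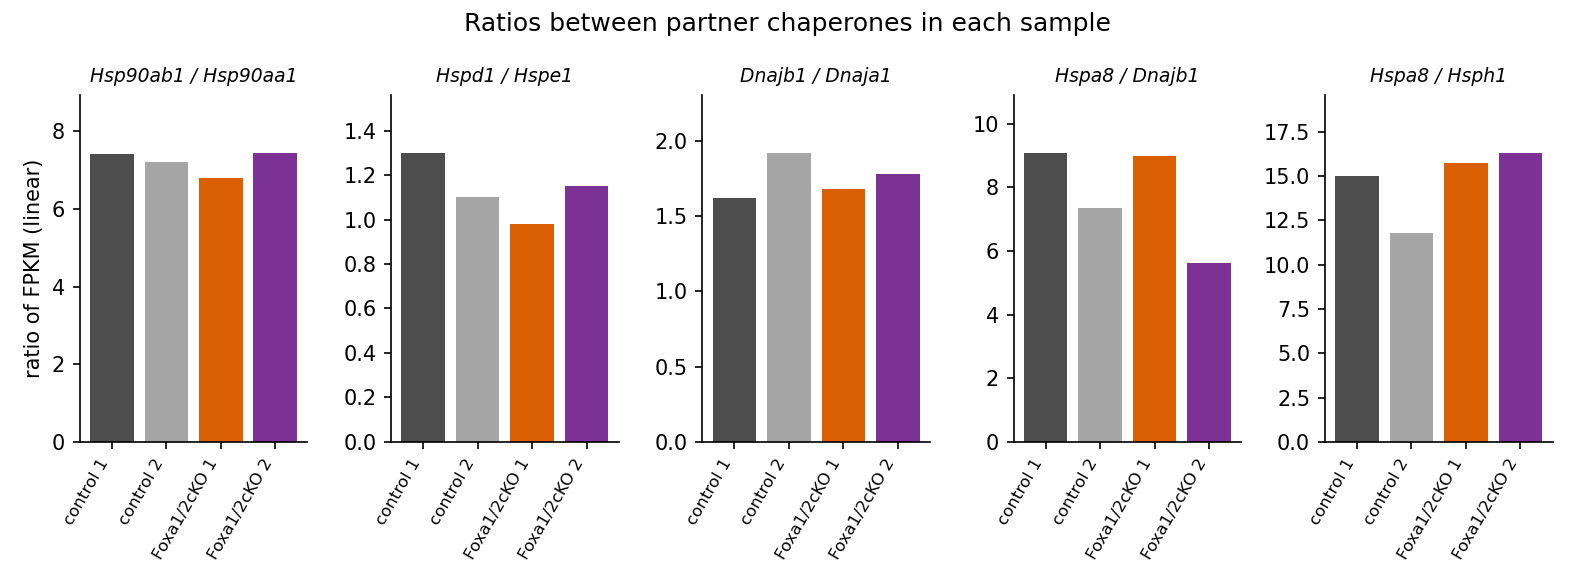
Ratio of the FPKM of partner chaperone genes (linear axes from 0), with 1 bar per sample. *Hsp90ab1* over *Hsp90aa1* stays between 6.80 and 7.45, and *Hspa8* over *Dnajb1* is lowest, at 5.63, in Foxa1/2cKO 2.

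The wider chaperone network was described with 10 further lists, holding 148 genes, some of them in more than 1 list, of which 131 were tested. None had an adjusted p under 0.05 in limma, where 0.00928% of all genes tested did. At an unadjusted p under 0.05 in limma there were 4 of the 131 (3.05%), with 1 higher and 3 lower in Foxa1/2cKO. The share over all genes tested was 4.55%, with 2.39% higher and 2.15% lower. *Stip1* and *Dnajc15*, which are also among the genes of highest level in their lists, and *Dusp1*, named for its p value, were among the 4. The median log2 fold change of the 131 genes was -0.03.

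Genes that control the heat shock response or are raised by HSF1 gave the following. *Hsf1*, which encodes the factor itself, had an FPKM of 41.2 and 39.5 in controls and 33.2 and 36.9 in Foxa1/2cKO. Both Foxa1/2cKO samples were below both controls, as they were for 17.8% of all genes tested. The difference of *Hsf1* was -0.20 ± 0.09 (SE) on the log2 scale with an adjusted p of 0.863 in limma. *Hsf2*, a related factor, overlapped between groups, at 7.51 and 7.97 in controls and 9.15 and 7.39 in Foxa1/2cKO. The median of the 7 tested of 12 heat shock factors and Hsp70 relatives was -0.02, and 0.04 without Foxa1/2cKO 2 and -0.06 without Foxa1/2cKO 1. *Hspa1l*, the testis-enriched gene next to *Hspa1a*, had 1, 0, 2 and 0 reads. In the list of HSF1 target genes beside the 10, 9 of 14 were tested, of which 6 had a lower and 3 a higher mean. Their median was -0.17, and -0.14 without Foxa1/2cKO 2 and -0.18 without Foxa1/2cKO 1. In 5 of the 9 both Foxa1/2cKO samples lay below both controls and in 1 above, where 17.8% of all genes tested lay below and 18.9% above. *Stip1*, which encodes Hop, the adaptor between Hsp70 and Hsp90, had an FPKM of 94.9 and 95.6 in controls and 75.5 and 83.8 in Foxa1/2cKO. There was no overlap, and its log2 fold change was -0.26 ± 0.09 (SE) with an unadjusted p of 0.0412. *Ahsa1*, which encodes an activator of the Hsp90 ATPase, was at 78.7 and 84.4 in controls and 68.3 and 76.0 in Foxa1/2cKO, with no overlap. *Fkbp4*, a co-chaperone of Hsp90 in steroid receptor complexes, was at 74.2 and 76.7 in controls and 68.3 and 60.3 in Foxa1/2cKO, also without overlap. The adjusted p in limma was 0.863 for *Stip1*, *Ahsa1* and *Fkbp4* alike.

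Partners of Hsp70 were spread around 0. The Hsp110 relative *Hspa4* had an FPKM of 62.4 and 61.6 in controls and 63.7 and 62.7 in Foxa1/2cKO, or 0.03 ± 0.08 (SE) as a log2 fold change. *Hspa4l*, another relative of *Hsph1*, was at 24.4 and 19.5 in controls and 21.4 and 42.3 in Foxa1/2cKO. Foxa1/2cKO 2 was the highest sample, as it was for 40.5% of all genes tested. The log2 fold change of *Hspa4l* was 0.45 ± 0.34 (SE), and -0.03 without Foxa1/2cKO 2 and 0.92 without Foxa1/2cKO 1. Of 40 J-domain genes tested, 20 had a higher and 20 a lower mean in Foxa1/2cKO, with a median of 0.00, which was 0.01 without Foxa1/2cKO 2 and -0.01 without Foxa1/2cKO 1. *Dnajc15*, a J-domain protein of mitochondria, had an FPKM of 68.8 and 70.1 in controls and 91.5 and 113 in Foxa1/2cKO. Both Foxa1/2cKO samples were above both controls, and its log2 fold change was 0.54 ± 0.12 (SE) with an unadjusted p of 0.00863 and an adjusted p of 0.863 in limma. *Dnajc8*, which takes part in splicing, was at 106 and 112 in controls and 112 and 114 in Foxa1/2cKO. *Dnajc7*, an adaptor of Hsp70 and Hsp90, had a log2 fold change of -0.19 ± 0.09 (SE), and its groups did not overlap. Of the 40 J-domain genes, 10 lay lower and 10 higher without overlap, where 17.8% and 18.9% of all genes tested did. Of 11 Hsp70 exchange factors tested, 6 had a higher and 5 a lower mean, with a median of 0.02, and 0.02 and 0.01 without Foxa1/2cKO 2 and 1. Log2 fold changes were 0.07 ± 0.09 (SE) for *Bag1* and -0.05 ± 0.09 for the endoplasmic reticulum (ER) protein *Hyou1*.

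Lists for Hsp90 partners, the CCT chaperonin and prefoldin lay at or slightly below 0. Of 18 Hsp90 co-chaperones tested, 12 had a lower and 6 a higher mean, with a median of -0.01, and -0.03 and -0.06 without Foxa1/2cKO 2 and 1. *Fkbp8* was at 139 and 144 in controls and 138 and 155 in Foxa1/2cKO, and *Cdc37*, which brings kinases to Hsp90, at 113 and 107 in controls and 113 and 127 in Foxa1/2cKO. CCT, which folds actin and tubulin, had 7 of its 8 subunits lower in mean, with a median of -0.09. That median was 0.03 without Foxa1/2cKO 2 and -0.20 without Foxa1/2cKO 1. *Cct2* was level, at 226 and 223 in controls and 229 and 222 in Foxa1/2cKO, and *Cct5* and *Tcp1* had log2 fold changes of -0.02 ± 0.10 and -0.09 ± 0.13 (SE). Prefoldin, which hands unfolded actin and tubulin to CCT, had 5 of 6 subunits lower, with a median of -0.08, which was 0.01 without Foxa1/2cKO 2 and -0.13 without Foxa1/2cKO 1. *Pfdn6* was at 58.7 and 59.7 in controls and 39.0 and 54.0 in Foxa1/2cKO, *Pfdn5* at 149 and 148 in controls and 162 and 156 in Foxa1/2cKO, and *Pfdn2* had a log2 fold change of -0.12 ± 0.09 (SE).

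In mitochondria and the ER the medians were also close to 0. Of 12 mitochondrial chaperones and proteases, 7 had a lower and 5 a higher mean, with a median of -0.04, and 0.00 and -0.07 without Foxa1/2cKO 2 and 1. *Hspa9*, the mitochondrial Hsp70, was at 67.5 and 70.4 in controls and 68.2 and 55.1 in Foxa1/2cKO. Foxa1/2cKO 2 was thus the lowest sample, as it was for 33.3% of all genes tested. *Trap1*, the mitochondrial Hsp90, had a log2 fold change of -0.03 ± 0.08 (SE) and the protease gene *Lonp1* one of -0.09 ± 0.08. Of 22 ER chaperones and unfolded protein response genes, 13 had a lower and 9 a higher mean, with a median of -0.03, and -0.02 and -0.08 without Foxa1/2cKO 2 and 1. *Hspa5*, which encodes the ER Hsp70 BiP, was at 141 and 138 in controls and 146 and 122 in Foxa1/2cKO. The groups overlapped for *Hspa5*, while *Calr*, at 239 and 257 in controls and 236 and 204 in Foxa1/2cKO, and *Pdia3*, at 132 and 144 in controls and 126 and 108 in Foxa1/2cKO, had no overlap. Of the 22 ER genes, 6 lay lower and 2 higher without overlap, where 17.8% and 18.9% of all genes tested did.

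Immediate early genes, which rise after T-cell receptor signals and after cell preparation, were listed beside the chaperones. Of 16 tested, 9 had a lower and 7 a higher mean in Foxa1/2cKO, with a median of -0.07, which was -0.11 without Foxa1/2cKO 2 and 0.01 without Foxa1/2cKO 1. *Nr4a1*, which encodes Nur77, was at 206 and 183 in controls and 183 and 217 in Foxa1/2cKO. *Egr1* was at 167 and 137 in controls and 117 and 196 in Foxa1/2cKO, and *Btg2* at 139.9 and 124 in controls and 133 and 226 in Foxa1/2cKO. Foxa1/2cKO 2 was the highest sample for all 3, as it was for 40.5% of all genes tested, and the groups overlapped. *Dusp1*, a phosphatase gene raised by stress, went the other way, at 15.6 and 15.0 in controls and 12.7 and 10.3 in Foxa1/2cKO, with a log2 fold change of -0.39 ± 0.13 (SE), an unadjusted p of 0.0325 and an adjusted p of 0.863 in limma. The part of cell preparation in these values was not tested.

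**Figure D5:**
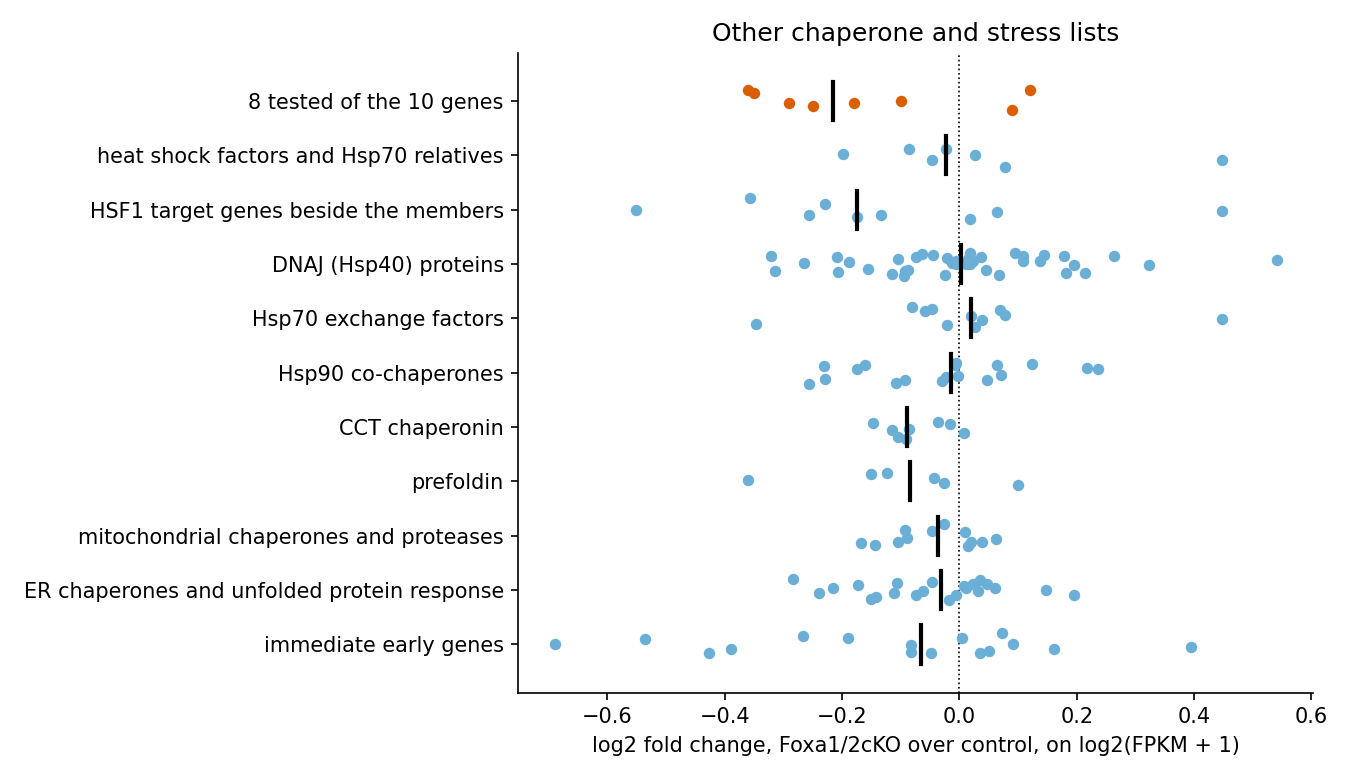
Log2 fold change of Foxa1/2cKO over control on log2(FPKM + 1), with 1 point per tested gene in each list and a black bar at the median of the list. The median is -0.21 for the 8 tested chaperone genes, -0.17 for the HSF1 target genes and between -0.09 and 0.02 for the other lists.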

How the data were processed

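RNA of FACS-sorted CD69+DP thymocytes was sequenced on an Illumina NextSeq, with 2 control and 2 Foxa1/2cKO samples. Reads were aligned to mm10 with RefSeq genes and counted with HTSeq in union mode, and the submitters' processing notes name TopHat, Picard and DESeq2. The deposited values are FPKM, 1 for each gene in each sample. The step that made them, and whether the counting per gene used the strand, are not given in the sources used here.

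From the steps between FPKM values, whole reads were recovered for 100% of the 16069 genes above 0, and 96.7% of 60 genes checked then had a whole length. The smallest whole reads of *Hsp90aa1* were doubled to match its annotated length. The totals by which FPKM had been divided, 10796528 to 14968316, differed from the reads on listed genes. In Foxa1/2cKO 2 the total was 11093927, below its 11242316 reads on listed genes. In the other samples the total was above those reads. The FPKM of Foxa1/2cKO 2 are thus somewhat high against a scaling to these reads. Precision at this depth was given by exact 95% intervals and a limit of 3 reads, which cover counting error only.

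Tests had been planned with limma on log2(value + 1) for normalized values. The test was that of limma 3.58.1 (R 4.3.3), with a trend of variance on level and a pseudocount of 1. Genes had to reach an FPKM of 1 in 2 or more samples, and p-values were adjusted by Benjamini-Hochberg over the 10776 that did, with a threshold of 0.05. Such fold changes understate those of low genes. There were 2 residual and 2.69 prior degrees of freedom. The steps were tested on simulated data. Because samples came from different mice, p-values measure the spread between these samples, with each variance drawn towards those of other genes. Whether a sample held a single mouse or a pool is not clear from the methods.

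Genes named are all 10 chaperone genes, *Hsf1*, *Hsf2*, *Hspa1l*, annotated genes that overlap the 10, *Foxa1* and *Foxa2*. The 3 genes of each further list with the highest mean FPKM are named too. Of the marker lists only some genes are named, as examples. *Dusp1* was chosen after its values were seen. The result of 1 gene of the further lists is left out. The 10 genes and the lists were chosen with earlier results of these data known. *Selenos*, of the ER list, was not among the listed genes. Gene positions are from GENCODE M21 on the same assembly. Alternatives were a pseudocount of 0.1, no filter, upper-quartile scaling, limma-voom on recovered reads, a replicate block and leaving out each sample, and, chosen after seeing the data, scaling to all recovered reads. Same-numbered samples did not deviate together (correlation -0.0587 over all genes tested). Other steps used pandas 2.3.3, numpy 2.4.6, matplotlib 3.10.9 and scipy 1.17.1 under Python 3.11.15.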

Additional observations from a re-analysis of the deposited data

How the results depend on the processing

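The number of genes called in all was 1, and 0 with a pseudocount of 0.1, with no filter on low values, with limma-voom and when scaled to all recovered reads, an alternative chosen after seeing the data. Leaving out 1 sample gave 0 to 2559 genes, of which 2559 without Foxa1/2cKO 1 and 19 without Foxa1/2cKO 2. The lone sample was then assumed to vary as the other group did. Of the 8 tested chaperone genes, 0 were called under each alternative with all 4 samples, and 0 to 7 with 1 sample left out, the 7 without Foxa1/2cKO 1. The number with a lower mean was 6 and ranged from 5 to 7. Their median log2 fold change was -0.21, with a range from -0.40 without Foxa1/2cKO 1 to -0.15 without Foxa1/2cKO 2, and -0.25 when scaled to all recovered reads, which moved the median of all genes to -0.03. Of the 131 genes of the further lists, 0 to 33 were called with 1 sample left out. The 33 were called without Foxa1/2cKO 1, where 23.7% of all genes tested were called, so such calls are not particular to these lists. Without Foxa1/2cKO 2, 1 was called, *Pfdn6*, where 0.176% of all genes tested were. Calls in both settings describe 1 Foxa1/2cKO sample and not the genotype. Of the 80 single-gene values under an alternative, 5 changed sign: *Hspa8* to 0.07 without control 1, *Dnaja1* to -0.01 without control 2, and *Dnajb1* to -0.26, *Dnaja1* to -0.18 and *Hspe1* to 0.08 without Foxa1/2cKO 2. In those left out in turn, *Hspa8* ranged from -0.28 to 0.07, *Dnajb1* from -0.26 to 0.45, *Dnaja1* from -0.18 to 0.43 and *Hspe1* from -0.43 to 0.08. The cause was not tested.

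The replicate numbers are shared between groups, and whether same-numbered samples came from the same sort is not stated. The fit with the replicate number as a block called 1 gene and 0 of the 8 chaperone genes, with a lower mean for 6, a median of -0.21 and 0 genes of the further lists called, and changed no call. Depth limited *Hspa1a* and *Hspa1b*, whose 1 to 38 reads per sample give wide intervals.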
